A study of Homo sapiens with 2 samples.

Results

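The genes described here encode the nuclear subunits of the mitochondrial respiratory chain and of ATP synthase, with the carrier cytochrome c and the complex I assembly factors whose symbols share the NDUFAF prefix. They were chosen by gene symbol, not by their signals. A gene was a member when its symbol began with NDUFA, NDUFB, NDUFC, NDUFS, NDUFV, UQCR, COX4 to COX8, ATP5F, ATP5M or ATP5P, or was SDHA, SDHB, SDHC, SDHD, CYC1 or CYCS, and when a probe set was annotated to that symbol alone. This gave 86 protein-coding genes on 168 probe sets, of 19775 genes in all. Pseudogenes, antisense RNAs and divergent transcripts with such names (5 in all) were left out. SDHB and UQCRFS1 were not analysed here.

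Expression was measured in MM.1S, an established human multiple myeloma cell line of plasma-cell type. One group held MM.1S cells grown in co-culture with plasmacytoid dendritic cells (pDCs), immune cells that are a main source of type I interferon. The comparison group was MM.1S grown without pDCs. Both groups were the same line with no genetic change or drug named in the labels, and the length of co-culture, the number of pDCs and their separation from MM.1S before RNA extraction are not stated in the labels used here. Each group had 1 Affymetrix HG-U133 Plus 2.0 array, so the values carry no replicate error, no test was possible, and "higher" and "lower" describe these arrays.

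The respiratory chain passes electrons from NADH and succinate to oxygen along the inner mitochondrial membrane. Complex I (NADH dehydrogenase) and complex II (succinate dehydrogenase) reduce ubiquinone, complex III passes the electrons to cytochrome c, and complex IV (cytochrome c oxidase) hands them to oxygen. Complexes I, III and IV pump protons, and complex V (ATP synthase) uses the proton gradient to make ATP. Some subunits of complexes I, III, IV and V are encoded by mitochondrial DNA, and 0 of 13 of those genes had a probe set annotated to them alone, so all values below are of nuclear genes. Cells that secrete much protein, such as plasma cells, spend much ATP on protein synthesis and folding.

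Most members had slightly lower signals with pDCs than without. A signal below the median of its array (115.9 with pDCs and 124.0 alone) was set to that median, called the floor, and each gene was represented by whichever of its probe sets had the largest log2 signal averaged over both arrays. By this rule 79 of the 86 members were at or above the floor on both arrays, 2 on the co-culture array only and 5 on neither. The log2 ratio (with pDCs minus alone) was below 0 in 62 of 81 members and above 0 in 19. That is 76.5% below 0, whereas the share was 53.3% over all 14408 genes at or above the floor on at least 1 array. The median log2 ratio was -0.21 over the members (1.15-fold lower) and -0.04 over all genes. The differences were small. Only ATP5ME was at least 2-fold lower, against 4.51% of all genes, and only COX6B2 was at least 2-fold higher, against 3.16% of all genes. At 1.5-fold, 8 members (ATP5ME, NDUFV3, NDUFAF2, ATP5MC2, NDUFB6, NDUFAF3, NDUFB8 and NDUFA2) were lower, against 15.3% of all genes, and 1 (COX6B2) was higher, against 11.5%. COX6B2 reached the floor on the co-culture array only, so its ratio is a bound. So the members held large differences no more often than all genes, most of which were dimmer, and the lower side showed in how many genes shared the sign.

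**Figure D1:**
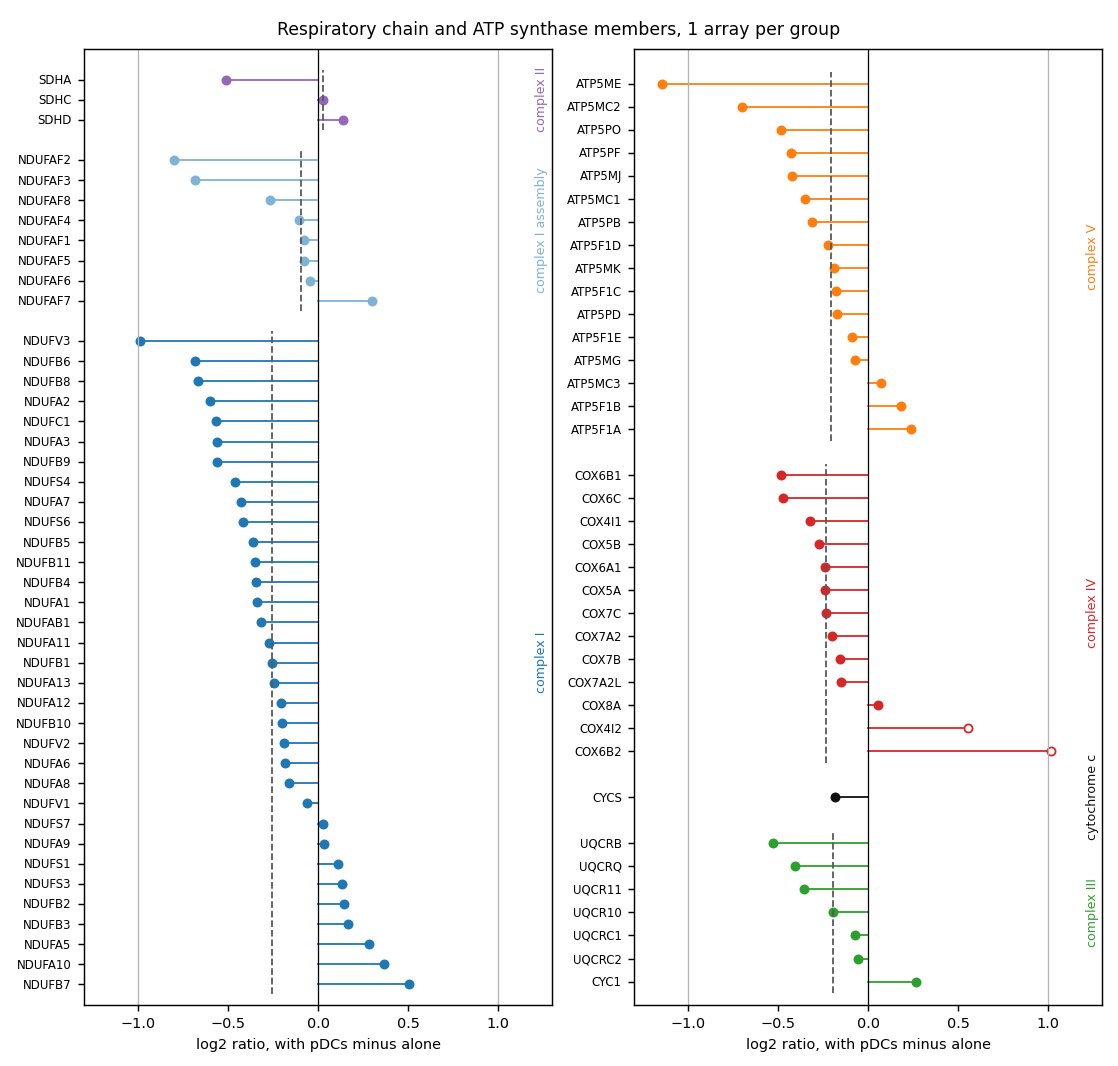
Log2 ratio (with pDCs minus alone) of each of the 81 members at or above the floor on at least 1 array, grouped by complex, with 1 array per group. Filled points are genes at or above the floor on both arrays, open points are lower bounds, dashed lines are medians and grey lines mark 2-fold; 62 of 81 points lie left of 0 and only ATP5ME and COX6B2 lie past 2-fold.

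Members were mostly genes of high signal. Among the 1441 genes in the top 10% by mean log2 signal, which held 67 members, the median log2 ratio was -0.24 for the 67 and -0.06 for the 1374 others, with ratios below 0 in 82.1% and 56.3%. The other scalings of the arrays moved the members' median towards 0 but kept its sign: it was -0.18 after median centring, -0.15 after quantile normalization and -0.14 after loess normalization. The median over all genes moved towards 0 as well, from -0.04 to -0.01, -0.02 and -0.02 in the same order. Of the 81 members, 79 kept their sign under all of these scalings, 60 lower and 19 higher, and ATP5F1E and ATP5MG did not. The 19 include COX4I2 and COX6B2, which reached the floor on the co-culture array only. By the floor, the ratios of these 2 could come out no lower than -0.10 on the deposited signals. Across the 81 members the Spearman correlation of the log2 ratio was -0.23 with mean log2 signal and 0.08 with the length of the gene. Without COX4I2 and COX6B2, which lay near the floor, it was -0.17 and 0.12. Over all genes it was 0.07 and 0.14 (14391 genes with a length). These are descriptions across genes that share the same pair of arrays.

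**Figure D2:**
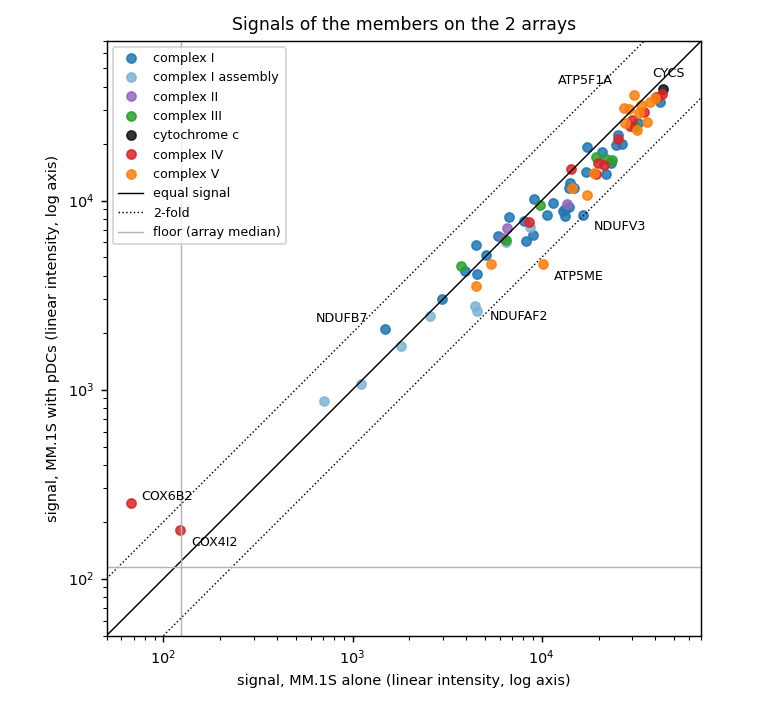
Signal of each member with pDCs (vertical, linear intensity on a log axis) against its signal alone (horizontal, same scale), 1 point per gene, coloured by complex, for the 81 members at or above the floor on at least 1 array. The solid line is equal signal, dotted lines are 2-fold and grey lines the floors; most points lie just under the line of equal signal, ATP5ME lies beyond the lower dotted line, and COX4I2 and COX6B2 lie near the floor.

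Some facts of the arrays stand beside these values. For ACTB, the control probe set at the transcript's 3' end was 8.09 times as bright as that at its 5' end with pDCs and 19.5 times alone, and for GAPDH 2.46 and 3.07 times; the part of RNA quality in the members' ratios was not tested. The cells matched their label, with all 10 plasma cell markers at or above the floor on both arrays (summed signal 213825 with pDCs and 223355 alone). Their median log2 ratio was -0.26, with 6 of 10 lower, which is near the members' median; JCHAIN, the joining chain of antibodies, was higher (50762 against 28558), and so weighed on the sum. Of 17 measured pDC markers, 10 were at or above the floor with pDCs and 12 alone, and CLEC4C and IL3RA, which define pDCs, were below it on both; the summed signal was 27090 with pDCs and 19044 alone, of which LAMP5 gave 19601 and 9053. The median log2 ratio of the 13 pDC markers with a ratio was -0.30, with 9 lower. Monocyte markers were at or above the floor for 3 of 7 genes with pDCs and 5 of 7 alone (summed signal 480 and 1545), and T cell markers for 3 of 6 on each array (1669 and 1133). The part of other cells in the members' ratios was not tested. In RNA of a whole culture, fewer cells of a type and less RNA per cell cannot be told apart.

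The start regions of the lowest and the highest member are shown because respiratory genes are known for sharing binding motifs of NRF1, ETS factors such as GABPA, and YY1 near their starts. The sequences are the 250 bases upstream of the annotated start, 5' to 3' on the gene's strand, from RefSeq (build GRCh38.p14); capitals mark a searched motif. The first is chr4:674277-674526 on the minus strand of chromosome 4 and the other chr19:14572067-14572316 on the minus strand of chromosome 19.
ATP5ME: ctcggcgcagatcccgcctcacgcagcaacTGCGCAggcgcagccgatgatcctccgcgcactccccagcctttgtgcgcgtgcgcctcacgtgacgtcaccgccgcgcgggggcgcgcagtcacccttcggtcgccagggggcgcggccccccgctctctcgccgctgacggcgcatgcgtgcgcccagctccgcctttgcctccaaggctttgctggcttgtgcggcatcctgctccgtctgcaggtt
NDUFB7: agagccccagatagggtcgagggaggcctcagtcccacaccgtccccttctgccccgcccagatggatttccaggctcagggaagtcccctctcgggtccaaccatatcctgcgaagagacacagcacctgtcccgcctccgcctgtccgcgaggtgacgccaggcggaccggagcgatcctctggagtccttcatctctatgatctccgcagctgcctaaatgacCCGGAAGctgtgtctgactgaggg
ATP5ME, the member with the lowest log2 ratio, held 1 NRF1 core (TGCGCA) and no other searched motif in this stretch. NDUFB7, which had the highest log2 ratio of the members at or above the floor on both arrays, held 1 ETS core (CCGGAAG). Over windows that also take in 50 bases after the start, RefSeq starts were found for 73 of the 86 members (91 windows). For comparison, 22198 windows of protein-coding genes were searched. On either strand, TGCGCA was in 25.3% of the members' windows and 9.88% of all, CCGGAAG in 25.3% and 12.8%, and the YY1 core AAGATGG in 22.0% and 6.04%; the motifs do not contain each other. The median log2 ratio was -0.24 for the 21 members with TGCGCA and -0.20 for the 49 without, -0.24 and -0.21 for CCGGAAG, and -0.25 and -0.20 for AAGATGG, so members with and without each motif had nearly the same medians. A match is a string of letters in a window and not a measured binding site.

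Complex I had the most members, 33 structural subunits, all at or above the floor on both arrays. Their median log2 ratio was -0.26, with 24 lower and 9 higher, and this count was the same under each other scaling. NDUFV3, an accessory subunit of the NADH-binding module, had a signal of 8359 with pDCs and 16610 alone, which is 1.99-fold lower and just inside the 2-fold limit. The dimmer NDUFV3 probe set (1109 against 1490.1) was lower too, by log2 ratio -0.43. NDUFB6 (8262 against 13283) and NDUFB8 (13811 against 21893), accessory subunits of the membrane arm, were 1.61-fold and 1.59-fold lower. NDUFB8 was lower on all 3 of its probe sets. NDUFA2, an accessory subunit of the matrix arm, was 1.52-fold lower (9186 against 13932.0). The other probe sets of NDUFB6 (141.2 against 101.3) and NDUFA2 (129.0 against 83.4) were dim, below the floor alone, and gave at least 0.19 and at least 0.06. Averaged over probe sets, NDUFB6 had -0.25 and NDUFA2 -0.21. Such averages take in probe sets below the floor on both arrays, as for NDUFA2, which enter as -0.10, the log2 ratio of the floors. NDUFC1, NDUFA3 and NDUFB9 followed, each 1.48-fold lower.

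The core subunits of complex I, most of which carry or pass on the electrons, had ratios closer to 0. NDUFV1, which binds NADH and the flavin, had 7772 against 8117 (log2 ratio -0.06). NDUFV2, an iron-sulphur subunit of the same module, had 35136 against 40067 (-0.19). The large iron-sulphur subunit NDUFS1 had 4249 against 3930.3 (0.11), the core subunit NDUFS3 had 6473 against 5908 (0.13) and NDUFS7, which holds the last iron-sulphur cluster before ubiquinone, had 5178 against 5082 (0.03). The other probe set of NDUFS7 was dim (264.5 against 132.6) and gave 0.996, and the mean over both was 0.51. The median of these 5 core subunits was 0.03, whereas it was -0.33 over the 28 other subunits, of which 22 were lower. NDUFB7 was the highest of the accessory subunits, 1.42-fold higher (2095 against 1478), with a log2 ratio of 0.48 on its other probe set. NDUFA10 was 1.29-fold higher (5819 against 4522; 0.07 as a log2 mean over probe sets) and NDUFA5 1.22-fold higher (8156 against 6699). By position, the 18 subunits of the membrane arm had a median log2 ratio of -0.31 (14 lower) and the 14 of the matrix arm -0.19 (9 lower). Some probe sets can match more than a single transcript and carry the suffix x_at or s_at; without them these medians were -0.34 (8 of 12 lower) and 0.03 (6 of 13 lower). NDUFAB1, the mitochondrial acyl carrier protein, which sits in both arms, had -0.32. NDUFB4 (25621 against 32511) and NDUFA1 (33290.5 against 42074), both of the membrane arm, had -0.34 each.

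The 8 NDUFAF genes encode factors that help to assemble complex I and are not part of the finished enzyme. Of these, 7 were lower and 1 higher, but the median was only -0.09. NDUFAF2 was 1.74-fold lower (2602 against 4535) and NDUFAF3 1.61-fold lower (2756 against 4430.0). NDUFAF8 (7204 against 8659) had -0.27, and NDUFAF4 (6037 against 6508) had -0.11 on its brighter probe set and 0.39 on the other. NDUFAF7, a methyltransferase needed for complex I assembly, was the only higher one (868 against 707, log2 ratio 0.30, with 0.06 and 0.03 on its other probe sets). The remaining 3 lay between -0.08 and -0.05.

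Complex II is the enzyme that the respiratory chain shares with the citric acid cycle, and 3 of its 4 subunits were measured. SDHA, the flavin subunit that oxidises succinate, was 1.42-fold lower (9555 against 13600). The membrane anchors SDHC (6365 against 6236) and SDHD (7182 against 6537) had log2 ratios of 0.03 and 0.14. All 6 probe sets of SDHC at or above the floor were positive, up to 0.95, while the other probe set of SDHD, below the floor with pDCs (4.32 against 155.3), gave at most -0.42. The median of the 3 was 0.03, but it was -0.14 when all probe sets of each gene were averaged.

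In complex III, 6 of 7 members were lower, with a median log2 ratio of -0.19. The small subunits were the lowest. UQCRB had 16371 against 23641 (1.44-fold lower), UQCRQ 16582 against 22017 (1.33-fold lower), UQCR11 24399 against 31240 (log2 ratio -0.36) and UQCR10 17005 against 19464 (1.15-fold lower). The large core proteins UQCRC1 (6154 against 6485) and UQCRC2 (9435 against 9825) differed little, at -0.08 and -0.06. CYC1, the haem-bearing cytochrome c1, was the only higher member (4493 against 3744, log2 ratio 0.26). UQCRB had a second bright probe set with -0.44 and 2 dimmer ones with 0.26 and 0.70, so its probe sets did not agree in sign. UQCR10 and UQCR11 each had a dimmer probe set on the higher side as well (0.55 and 0.24). Without x_at and s_at probe sets the complex III median was 0.24. Cytochrome c itself (CYCS), the soluble carrier between complexes III and IV that also activates caspases when released, had 38656 against 44043 (-0.19). A second CYCS probe set of low signal (419 against 206) gave 1.03, so the direction of CYCS depended on the probe set.

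Complex IV had 17 members, of which 11 are the commonly expressed subunits. Their log2 ratios lay within a narrow range, from -0.49 to 0.05, with an SD over genes of 0.15, and 10 of them were lower. COX6B1 (13866 against 19441) was 1.40-fold lower and COX6C (15409 against 21451) 1.39-fold lower. COX4I1, which takes part in regulating the enzyme, had 15888 against 19923 (-0.33), with -0.29 on its other probe set above the floor. COX5B had 21052 against 25477 (-0.28). Its 2 other bright probe sets gave -0.56 and -0.30, and a dim one (292 against 104) at least 1.24. COX5A had 24835 against 29326 (-0.24) and 0.24 on a dimmer probe set. COX6A1 (29400.3 against 34739), COX7C (36691 against 43124.5) and COX7A2 (35265 against 40640) had -0.24, -0.23 and -0.20. COX7B (26812 against 29935) and COX7A2L, a factor of supercomplexes (7729 against 8596), had -0.16 and -0.15. COX8A was level (14763 against 14248, 0.05). The median of all 13 members with a ratio was -0.23, or -0.13 after loess.

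The other complex IV genes are isoforms known from muscle, lung, testis or other particular tissues, and were at or near the floor. COX6A2 (115.9 against 72.5), COX7A1 (16.2 against 43.0), COX7B2 (66.5 against 37.1) and COX8C (7.34 against 3.74) reached the floor on neither array and have no ratio. COX6B2, a testis form of COX6B1, had 250.3 with pDCs and 67.0 alone, and was at least 2.02-fold higher. COX4I2, the lung form of COX4I1, had 181.6 against 122.2 and was at least 1.47-fold higher, although its signal alone was just under the floor of 124.0. Each rests on 1 dim probe set and reached the floor on the co-culture array only. Its ratio could therefore come out no lower than -0.10, the log2 ratio of the floors of both arrays. No contrast with the common form was drawn. With the floor at the 70th percentile, COX4I2 and COX6B2 gave no ratio.

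In ATP synthase, 13 of 16 members with a ratio were lower, with a median log2 ratio of -0.21; 12 were lower after quantile normalization and after loess. ATP5ME, the small membrane subunit e that links ATP synthase dimers, had 4612 with pDCs and 10200 alone and was 2.21-fold lower, the lowest of all members. Its other probe set, also bright (5218 against 8773), gave -0.75. ATP5MC2, one of 3 genes for the c-ring subunit, was 1.63-fold lower (10664 against 17357). ATP5MC1 (3535 against 4517) had a log2 ratio of -0.35, while ATP5MC3 was level (30506 against 29072, log2 ratio 0.07, with -0.08 and -0.51 on its other probe sets). These 3 genes encode the same mature protein. When all probe sets of each gene were averaged, ATP5MC3 had -0.17 and all 3 were lower.

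The peripheral stalk, which holds the head of ATP synthase still, was lower in all 4 genes: ATP5PO (25962 against 36315) was 1.40-fold lower, ATP5PF (23664 against 31879) 1.35-fold, ATP5PB (11671 against 14504.5) 1.24-fold and ATP5PD (33216 against 37441) 1.13-fold. ATP5PB had a dim probe set on the other side (0.69), and without x_at and s_at probe sets 2 of 3 stalk genes were lower. The 5 genes of the catalytic head and its central stalk had a median of -0.09, with 3 lower and 2 higher. ATP5F1A, the alpha subunit, had 36111 against 30683 (0.24), and ATP5F1B, the catalytic beta subunit, had 30930.2 against 27282 (0.18); each had a higher ratio than any other gene of the complex under each scaling. The gamma subunit ATP5F1C (29059 against 32887), delta ATP5F1D (4612 against 5390.0) and epsilon ATP5F1E (25839 against 27569) had -0.18, -0.22 and -0.09. ATP5F1D gave 0.81 on its other probe set. Of the small membrane subunits, ATP5MJ (14061 against 18884) had -0.43, ATP5MK (35009 against 39899) -0.19 and ATP5MG (31814.5 against 33473) -0.07. ATP5MF was below the floor on both arrays on its only probe set with 1 symbol.

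Across the complexes, the 20 measured core subunits had a median log2 ratio of -0.07, with 12 lower and 8 higher and none past 1.5-fold. They were the core subunits of complex I, the subunits of complex II, and UQCRC1, UQCRC2 and CYC1 of complex III. Cytochrome c, COX4I1, COX5A and COX5B, and the head and central stalk of ATP synthase made up the rest. The 51 other structural subunits had a median of -0.32, with 43 lower and 8 higher. Pooled over the complexes, this order held under each alternative that was run. The core median ranged from -0.07 to 0.08 and that of the others from -0.32 to -0.24. Within single complexes it did not always hold. On the representing probe sets, complex IV was an exception, with -0.28 for COX4I1, COX5A and COX5B and -0.22 for the 8 others. Its catalytic subunits are encoded by mitochondrial DNA, and these 3 nuclear genes stood in for them. Without x_at and s_at probe sets, complex IV turned over: COX5A had 0.24 and COX5B at least 1.24, and the other common subunits with a value were below 0. Complex III turned over too: UQCR10, UQCRB and UQCR11 had 0.55, 0.26 and 0.24 and UQCRQ -0.41, against 0.26, 0.06 and -0.08 for CYC1, UQCRC2 and UQCRC1. It did so as well when a gene's probe sets were averaged. The difference between these classes has no test.

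**Figure D3:**
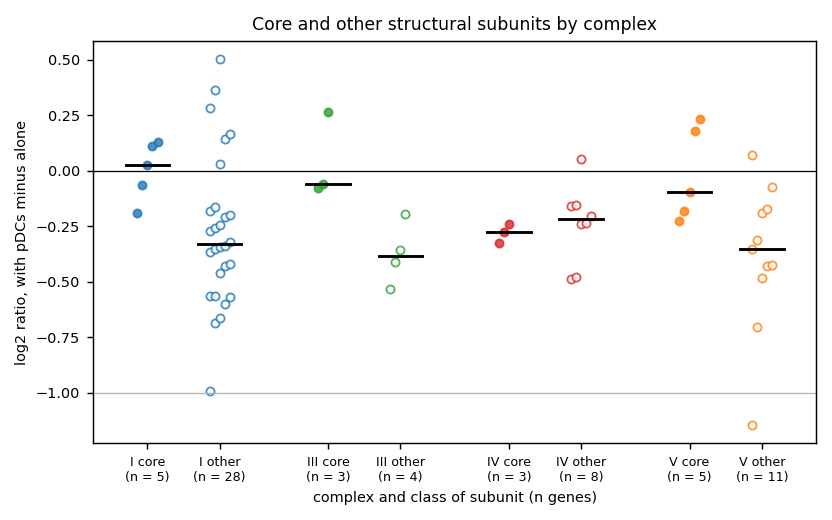
Log2 ratio (with pDCs minus alone) of core subunits (filled points) and other structural subunits (open points) of complexes I, III, IV and V, 1 point per gene, with black bars at the medians; the tissue isoforms of complex IV are left out. In complexes I, III and V the median of the core subunits (0.03, -0.06 and -0.09) lies above that of the others (-0.33, -0.38 and -0.35), and in complex IV it lies slightly below.

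Ratios below 0 were more frequent among bright probe sets than among dim ones. Of the members' probe sets with a mean log2 signal of at least 12, 72 of 87 (82.8%) had a ratio below 0 and the median was -0.24, while over all probe sets in that range 55.3% were below 0 and the median was -0.05. Of the members' dimmer probe sets, 24 of 60 (40%) were below 0, with a median of 0.06, while over all dimmer probe sets it was 51.3% and -0.02. Of 42 members with more than 1 probe set at or above the floor, 17 were lower on all of them, 6 were higher on all and 19 had both signs. When another probe set of the gene was bright too, it had the sign of the representing one in 16 of 18 cases. A dimmer one had that sign in 28 of 48. With 82.8% of the members' bright probe sets below 0, equal signs would be frequent between unrelated bright ones too. No such share was taken over all genes. The members with both signs were ATP5F1D, ATP5MC3, ATP5PB, COX5A, COX5B, COX7B, CYCS, NDUFA10, NDUFA2, NDUFA6, NDUFAF4, NDUFAF6, NDUFB6, NDUFS1, SDHD, UQCR10, UQCR11, UQCRB and UQCRC2. The probe sets of 6 members (ATP5F1D, ATP5PB, COX5B, CYCS, NDUFA11 and UQCRB) differed by more than 1 log2 unit. Leaving out the x_at and s_at classes kept 61 members with a median of -0.11, of which 36 (59.0%) were lower, against 52.9% of all genes. For 24 of the 61 this took a dimmer probe set: the median signal alone was 682 in place of 19174, and the median log2 ratio of the 24 was 0.08 in place of -0.24. For the 37 members whose probe set did not change, the median was -0.16, with 27 lower.

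**Figure D4:**
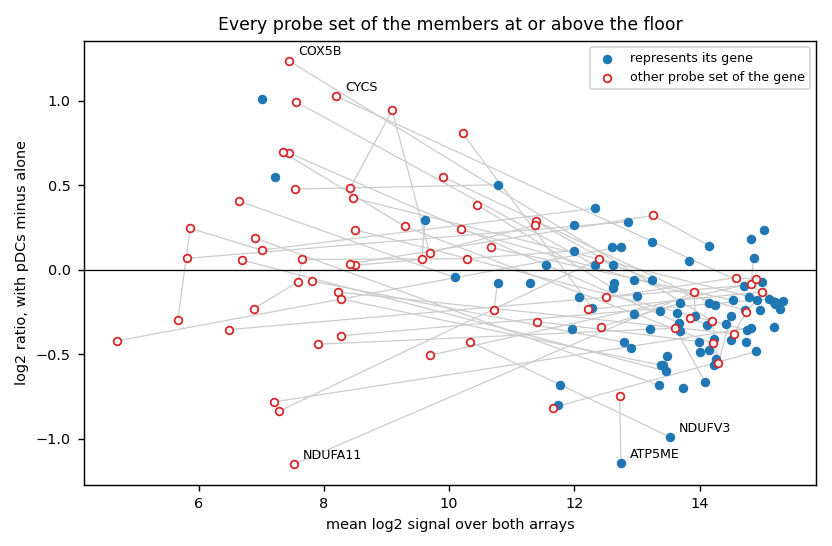
Log2 ratio (with pDCs minus alone) against mean log2 signal over both arrays for every member probe set at or above the floor on at least 1 array. Filled points represent their gene, open points are other probe sets and grey lines join probe sets of a gene; at a mean log2 signal of 12 or more 72 of 87 points lie below 0, and below 12 it is 24 of 60.

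Other mitochondrial genes did not all share these ratios. Of 47 assembly factors outside the prefixes above, 32 were lower and 15 higher, with a median log2 ratio of -0.20. ATPAF2, which helps to assemble the head of ATP synthase, was 2-fold lower or more (205 against 468, log2 ratio -1.19), as was UQCC1, a complex III assembly factor (463 against 944.5, -1.03), while ATPAF1, the partner of ATPAF2, was on the other side (4773 against 2567, 0.89). Of 20 regulators of mitochondrial genes and of mitochondrial DNA expression, 9 were lower and 11 higher, with a median of 0.08 and none past 2-fold. YY1 (5796 against 4888) had 0.25, TFB2M, a mitochondrial transcription factor (5401 against 4313), 0.32, and NRF1 (555 against 584) -0.07. Of 15 genes of the citric acid cycle and pyruvate dehydrogenase, 5 were lower and 10 higher, with a median of 0.03. Citrate synthase (CS) was level (8402 against 8393), MDH2 (14012 against 18738.5) had -0.42 and SUCLG1 (8881 against 9374) -0.08. Of 10 genes that feed ubiquinone by other routes or exchange ADP, ATP and protons across the inner membrane, 8 were lower, with a median of -0.28. The adenine nucleotide carrier SLC25A5 (29437.5 against 29464) and the phosphate carrier SLC25A3 (24502 against 24929) had almost equal signals on the arrays. So the assembly factors had a median near that of the members, and the citric acid cycle did not; the difference between lists has no test.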

How the data were processed

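Per the labels' protocols, biotin-labelled RNA of each culture went onto 1 array; sample titles gave the groups. The submitters' processing notes name MAS5 as the tool, and the authors deposited its linear intensity values, with no version or detection call stated in the labels. Both arrays had a 2% trimmed mean of 500.1, so differences shared by most transcripts are scaled away. Precision is limited by having 1 array per group.

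Of 54675 probe sets, 41091 had 1 symbol in the platform annotation, and 41037 of these matched a RefSeq gene of GRCh38.p14 (0 symbols were updated). Signals below each array's median were set to it, log2 ratios were taken (with pDCs minus alone), and a ratio from a gene below the floor on 1 array is a bound. All members could be named; both signals were given for core subunits, for members past 1.5-fold, for the 3 with the highest signal of each complex and for isoform pairs. Other lists name up to 4 genes past 2-fold or the 2 brightest, and ATPAF1, CS and NRF1 were added to these with their values in view. The alternatives tried were 3 scalings (median centring, quantile, loess with span 0.3), no floor or one at the 30th or 70th percentile, averaging a gene's probe sets, no x_at or s_at probe sets, structural subunits and carriers only, and 1.5-fold. The averages over probe sets took in those below the floor on both arrays, each as the log2 ratio of the floors (-0.10). A median that moved by under 0.1 (log2) was taken as the same. Members and lists were chosen with earlier results of these data known, and the complex I arms and ATP synthase parts, and the limit of 12 for bright probe sets, were set after the files were seen. Calculations used Python 3.11.15, numpy 2.4.6, pandas 2.3.3, statsmodels 0.14.6 and matplotlib 3.10.9 and were tested on simulated data.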

Additional observations from a re-analysis of the deposited data

How the results depend on the processing

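Under 10 alternatives the members' median log2 ratio stayed below 0, from -0.23 to -0.11. Of 100 summary values 86 kept their direction and size, 11 moved and 3 reversed. Part of this agreement was fixed in advance. The 79 members at or above the floor on both arrays had signals of 707 or more, above every floor tried. Median centring moved every ratio by the same 0.03, less than the limit of 0.1. Of the single members, 45 were lower and 16 higher in every alternative that gave a value, and 20 changed sign in at least 1. COX4I2 and COX6B2, near the floor, are among the 16. With the mean over probe sets, the median was -0.14 for complex II, -0.0601 for complex III and 0.25 for cytochrome c. In that setting 0 members were 2-fold lower, against 2.11% of all genes. Without x_at and s_at probe sets, 36 of 61 members were below 0, against 52.9% of all genes, and the complex III median was 0.24. Here 2 members were 2-fold higher, against 3.58% of all genes. Loess gave -0.13 for complex IV and -0.0765 for cytochrome c, and quantile normalization -0.0621 for cytochrome c. The count of members 2-fold higher was 0 with the floor at the 70th percentile, against 1.9% of all genes. It was 0 as well with structural subunits and carriers only, against 3.16%. With no floor, 2 of 86 members were 2-fold lower, against 14% of all genes. At 1.5-fold, 8 were lower, against 15.3%. The cause of these moves was not tested, apart from the members left out by a stricter floor or a shorter list. No paired analysis was possible because each group has 1 array. Dim probe sets, such as those of the tissue isoforms of complex IV, limit what can be read from single genes.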

Other observations

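Probe sets annotated to several genes were not used above, but some hold further subunits. The probe set shared by UQCRH, the hinge protein of complex III, and UQCRHL had 35773 with pDCs against 44339 alone (log2 ratio -0.31). The one shared by NDUFS5 and RPL10 had 14622 against 20492 (-0.49). The brighter probe set of NDUFC2, shared with a read-through transcript, had 7264 against 10022 (-0.46), and the dimmer one 740 against 734 (0.01). NDUFS8, a core iron-sulphur subunit of complex I whose probe sets are also annotated to microRNA genes, had -0.47 on its brightest probe set (8172 against 11306), -0.03 on the next (2506 against 2559) and 0.69 on the dimmest (516 against 319). A bright probe set shared by ATP5MF and an antisense RNA had 19060 against 23004 (-0.27), although the only probe set of ATP5MF alone was below the floor. These probe sets cannot be assigned to a single gene, and the brightest ones of each were all lower with pDCs.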
